A study of Gasterosteus aculeatus with 16 samples.

Results

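The mitochondrial genome of the threespined stickleback held 37 gene models in these data, of 22456 models in all, and each was followed across 16 clutches of embryos. The members are all models whose locus lies on the mitochondrial sequence (MT) of genome build BROADS1, and 16 of the 37 were also among the 17440 genes with read counts on the logCPM scale. The files give IDs and positions but no names or RNA types, so the models were numbered 1 to 37 by position and sorted by length and place. By this rule 22 models under 80 nt were called tRNA models, models 2 and 4, which lie ahead of ND1, were called rRNA models, and the other 13 were called protein-coding models. Names were available for 8 of these 13, from the study's list of genes that differed between these groups, so having a name was itself tied to the comparison made here.

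RNA came from whole embryos at 3 days post-fertilization, pooled within each clutch, and 1 clutch came from each mother. In the 8 maternally-stressed clutches the mothers had been chased daily with a rubber model of a sculpin, and in the 8 control clutches they had not. All mothers were wild-caught as juveniles and housed as groups in tanks, all eggs were fertilised in a dish with sperm from dissected testes, and the libraries were enriched for polyadenylated RNA with oligo(dT). Treatment had been assigned to tanks of females, and which mothers shared a tank is not given in the sources used here, so clutches were treated as independent.

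The mitochondrial genome of vertebrates carries genes for subunits of the respiratory chain and of ATP synthase, and the rRNAs and tRNAs that translate them inside the organelle. In mammals it is transcribed as long precursor RNAs, from which the tRNAs are cut out to release the mRNAs and rRNAs between them. The remaining subunits of complexes I, III, IV and V are encoded in the nucleus, so each of these complexes is built from products of both genomes.

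Read depth, recovered as whole reads from the logCPM values, was 8950867 to 12765406 reads in genes per clutch. Levels are given as CPM, the reads of a gene scaled to the reads in all genes of its clutch, and a model without a read could still hold up to 3 reads (0.235 to 0.335 CPM), counting error only. The mitochondrial models held 55075 to 190625 of these reads per clutch. One clutch of each group, control 15_14 and maternally-stressed 24_28, stood apart from the other 14 at models 21 and 33, and fold changes that rest on them are given with and without both. Reads in 141 short nuclear models of at most 250 nt also differed between clutches, from 0.0269% of reads in control clutch 15_14 to 0.0874% in maternally-stressed clutch 10_5.

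Mitochondrial transcripts made up a larger share of reads in most maternally-stressed clutches. The share was 0.646% at the lowest, 1.07% at the median and 1.89% at the highest in the maternally-stressed group, and 0.569%, 0.673% and 0.840% in the control group. Of the 8 maternally-stressed clutches, 7 were above every control clutch, and clutch 3_10 lay within the control range. The means were 1.14% ± 0.380 and 0.692% ± 0.0918 (SD, n = 8 clutches each), a difference of 0.445 percentage points that was given no test, since it sums over genes chosen with results known. Without COX2, the model with the largest called change, the difference was 0.310 percentage points. On the FPKM scale, in which the authors divided fragments by transcript length and library size, the groups overlapped more, at 0.860% ± 0.133 and 0.741% ± 0.159 of the summed FPKM. That sum includes tRNA models on few reads, such as model 17 with a mean of 897 FPKM from 1 to 14 reads per clutch. The FPKM share is therefore not the same measure as the share of reads, and it is also divided by a different total. How far the tRNA models account for the smaller difference between groups was not tested. In whole embryos, fewer or more mitochondria, cells rich in them, and RNA per mitochondrion cannot be told apart.

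**Figure D1:**
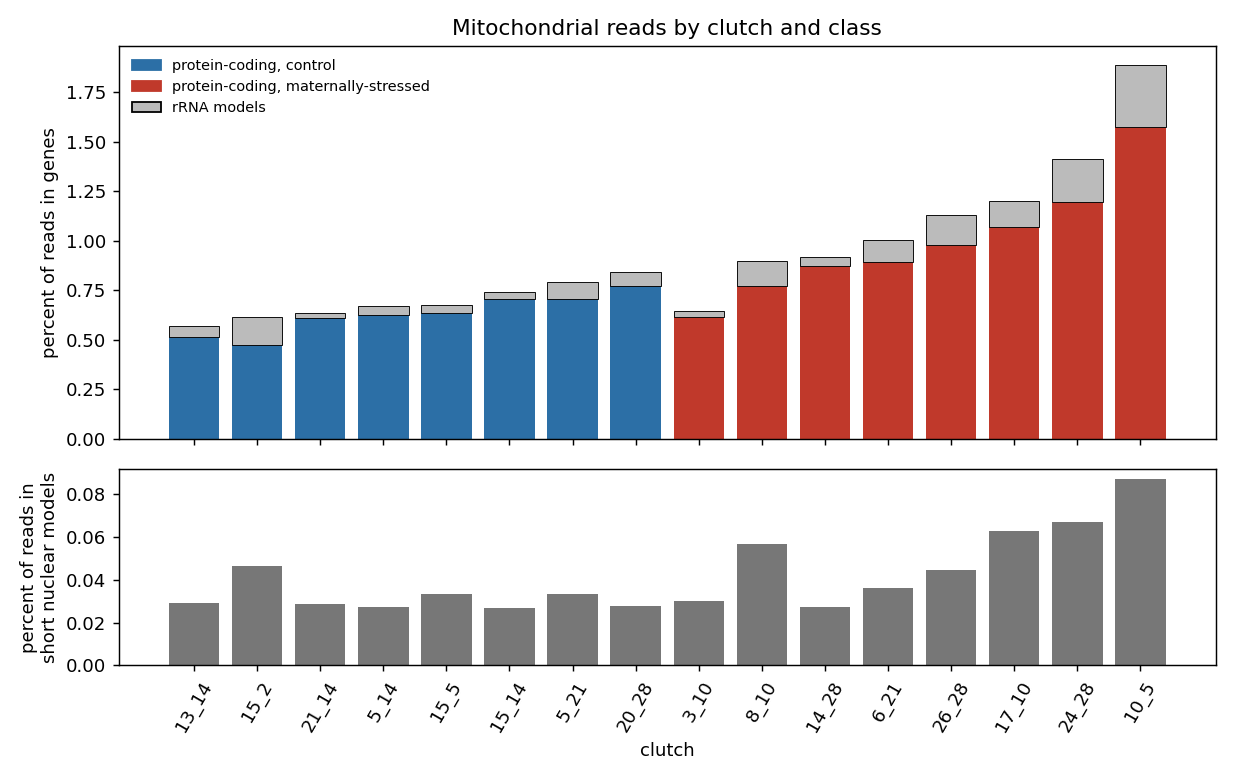
Upper panel, bars from 0 showing the percent of reads in genes that fell in mitochondrial models in each clutch, with protein-coding models coloured by group and rRNA models in grey on top. Lower panel, percent of reads in the 141 short nuclear models. Clutches are ordered by mitochondrial share within each group, and clutch 10_5 has the highest value of both measures (1.89% and 0.0874%).

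The mitochondrial reads were unevenly divided. COX1 held 29.7% of them, COX2 24.4% and CYTB 14.2%, so these 3 models together held 68.3% of mitochondrial reads over all clutches. COX1 and COX2 encode catalytic core subunits of cytochrome c oxidase (complex IV), and CYTB encodes cytochrome b of complex III. The rRNA models held 3.46% (model 2) and 7.61% (model 4), in libraries selected for polyadenylated RNA. Per kilobase of locus the order was COX2 (3224 CPM per kb), COX1 (1749), CYTB (1132), COX3 (669) and ATP6 (637), and the lowest of the 16 was model 27 with 1.88 CPM per kb. COX3 and ATP6 differed by less than their spread over clutches, as did model 2 (343 CPM per kb) and ND3 (349 CPM per kb).

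**Figure D2:**
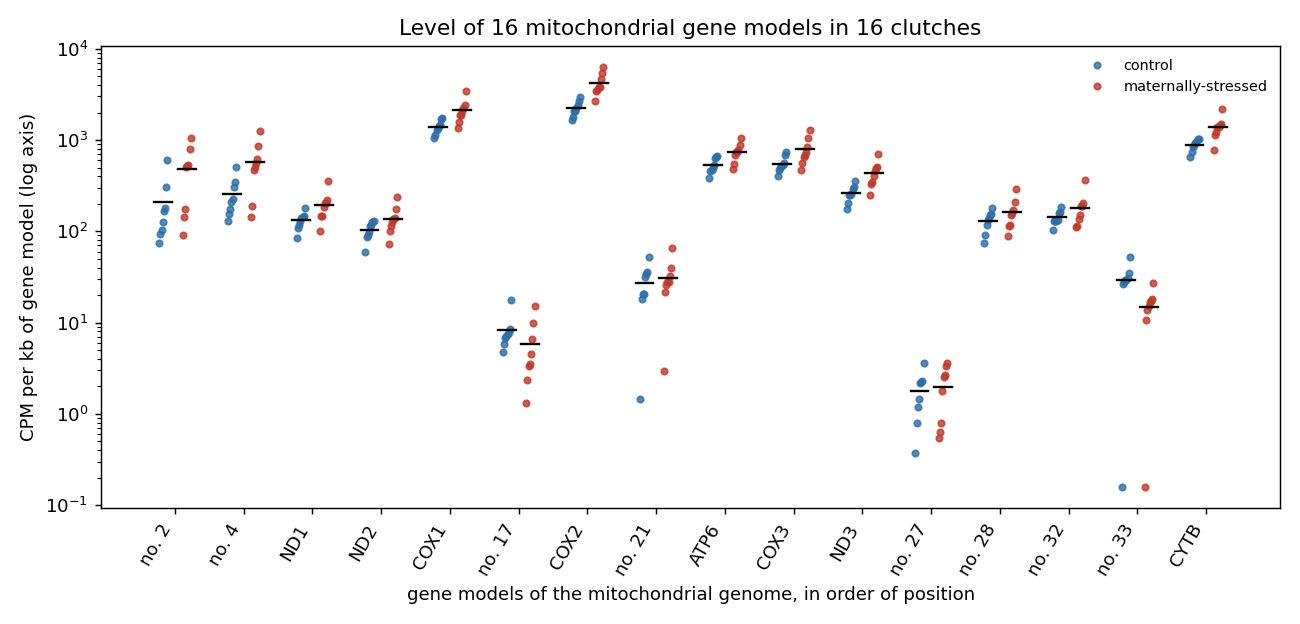
CPM per kilobase of locus, on a log axis, for the 16 mitochondrial models with read counts, in order of position. Each point is a clutch, blue for control and red for maternally-stressed, and the black line is the group mean. COX2 is the highest model, with a mean of 3224 CPM per kb over all clutches, and single low points in each group stand at models 21 and 33.

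Among the 16 models tested on logCPM, 14 were higher in maternally-stressed embryos, 2 rose past a false discovery rate (FDR) of 0.1 and 0 fell. Over all 17440 genes tested with limma, 0.103% rose, 0.413% fell and 0.516% passed in either direction. The median log2 fold change, maternally-stressed over control throughout, was 0.46 over the 16 models and -0.05 over all genes. At an unadjusted p under 0.05, 9 of the 16 were higher and 0 were lower, against 2840 of 17440 genes in either direction. On log2(FPKM + 1), 20 of the 37 models had a value above 0 in 2 or more clutches and entered the test. Of these, 17 were higher, 1 rose past FDR 0.05 and 0 fell. With an unadjusted p under 0.05, 9 were higher and 0 lower, against 4382 of 21028 models in either direction. Over the 21028 models tested on that scale, 0.0428% rose, 0.266% fell and 0.309% passed. With quantile normalization in place of the deposited scaling, 32 genes rose and 64 fell on logCPM, against 18 and 72. The 14 of 16 models higher on logCPM were 14 under each scaling tried, and since the models share libraries their directions are not separate observations.

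COX2 (position 7173 to 7863) rose on both scales. Its level was 1842 CPM at the lowest, 2612 at the median and 4367 at the highest in maternally-stressed clutches, and 1143, 1502 and 2041 CPM in control clutches. All but 1 of the maternally-stressed clutches, 3_10, lay above every control clutch. The means were 2905 ± 828 and 1550 ± 303 CPM, which gave 0.88 as the log2 fold change (SE 0.15, adjusted p = 0.0336 from limma). The call held on logCPM when any 1 clutch was left out. On FPKM, COX2 averaged 3569 ± 801 against 2029 ± 406, a change of 0.81 on log2(FPKM + 1) (SE 0.15, adjusted p = 0.0387), and this call was lost without any 1 of 9 clutches, with adjusted p from 0.0541 (without 26_28) to 0.103 (without 5_14). Those 9 were 10_5, 17_10, 24_28 and 26_28 of the maternally-stressed and 13_14, 15_5, 21_14, 5_14 and 5_21 of the control clutches.

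CYTB (position 14372 to 15512) was the other called model on logCPM, close to the threshold. It ranged from 881 through a median of 1598 to 2523 CPM in maternally-stressed and from 744 through 1033 to 1164 CPM in control clutches. Again 7 of 8 maternally-stressed clutches were above every control, all but 3_10. The means were 1583 ± 466 and 1001 ± 149 CPM, a difference of 0.62 on the log2 scale (SE 0.15, adjusted p = 0.0998 from limma). The call was lost without any 1 of 12 of the 16 clutches, with adjusted p from 0.108 (without 5_21) to 0.222 (without 13_14), and was kept only without 15_14, 3_10, 6_21 or 8_10. On log2(FPKM + 1) its log2 fold change was 0.55 (adjusted p = 0.0823 from limma), short of the FDR of 0.05 used there.

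The remaining mitochondrially encoded subunits of complex IV, COX1 and COX3, were higher in maternally-stressed embryos without passing the test. COX1 (position 5465 to 7015) had 2110, 3067 and 5349 CPM (lowest, median and highest) in maternally-stressed and 1649, 2145 and 2672 CPM in control clutches. Here 6 of 8 maternally-stressed clutches exceeded every control, and the log2 fold change was 0.57 (SE 0.15, adjusted p = 0.120 from limma). COX3 (position 8780 to 9565) had 371, 561 and 1021 CPM against 318, 411 and 580 CPM. The highest maternally-stressed clutch for COX3 was 24_28, not 10_5 as for most models, and the log2 fold change was 0.48 (SE 0.17, adjusted p = 0.183). ATP6 (position 8097 to 8780), which encodes a subunit of the proton channel of ATP synthase (complex V), had 330, 505 and 725 CPM against 264, 349 and 455 CPM, and changed by 0.45 on the log2 scale (SE 0.14, adjusted p = 0.147), short of the threshold. Its reads could be divided uncertainly at one end, where it overlaps model 21 by 10 nt.

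The 3 named mitochondrial models of NADH dehydrogenase (complex I) subunits had fewer reads than COX1, COX2 and COX3. Per kilobase of locus, ND3 had 349, ND1 163 and ND2 121 CPM per kb, against 669 CPM per kb for COX3, the lowest of COX1, COX2 and COX3. ND3 (position 9635 to 9985) had 87.4, 150.5 and 249 CPM in maternally-stressed and 62.1, 89.1 and 126 CPM in control clutches, with 5 of 8 maternally-stressed clutches above every control. Its log2 fold change, the second largest among the named models, was 0.69 (SE 0.17, adjusted p = 0.106 from limma), just short of FDR 0.1. ND1 (position 2851 to 3825) had 98.7, 187 and 350.2 CPM against 81.7, 131 and 176 CPM, with a log2 fold change of 0.50 (adjusted p = 0.204). ND2 (position 4036 to 5082) had 75.2, 137 and 250.1 CPM against 62.9, 112 and 137 CPM, and its log2 fold change of 0.37 had a 95% interval of -0.03 to 0.76 (adjusted p = 0.345). The lowest maternally-stressed clutch was 3_10 and the highest 10_5 for all of these 3 subunits.

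**Figure D3:**
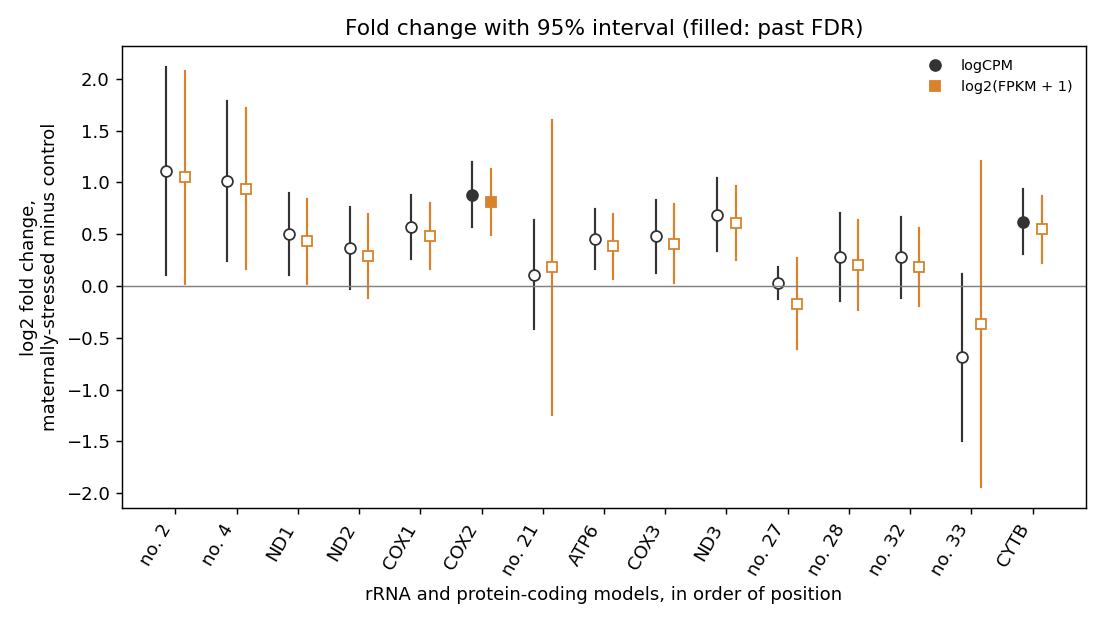
Log2 fold change (maternally-stressed minus control) with its 95% interval from limma for the rRNA and protein-coding models, in order of position, on logCPM (circles) and log2(FPKM + 1) (squares). Filled symbols passed the FDR, which were COX2 on both scales (0.88 and 0.81) and CYTB on logCPM (0.62).

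Leaving out single clutches moved how many of the 16 models were called on logCPM. The count of higher calls lay between 1 and 9, and it was 9 without maternally-stressed clutch 3_10, 6 without 8_10, 3 without 6_21 and 5 without control clutch 15_14. Calls over all genes moved along with it, to 1233 genes without 3_10, 1087 without 8_10, 196 without 6_21 and 746 without 15_14, from 90 with all clutches. Clutch 3_10 had the lowest maternally-stressed level of all 8 named models, within the range of the control clutches for each of them.

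The level of COX2 relative to COX1 was higher in maternally-stressed clutches, with no overlap in reads and a slight overlap in FPKM. Reads of COX2 per read of COX1 were 0.815 to 1.02 in maternally-stressed clutches (mean 0.893 ± 0.0732) and 0.538 to 0.814 in control clutches (mean 0.722 ± 0.0925). The gap between them was narrow, with maternally-stressed clutches 26_28 (0.815) and 10_5 (0.816) next to control clutch 5_21 (0.814). On FPKM the ratio was 2.63 to 3.25 in maternally-stressed (mean 2.91 ± 0.227) and 1.71 to 2.63 in control clutches (mean 2.33 ± 0.314), with maternally-stressed 10_5 (2.632) below control 5_21 (2.633). The lowest control clutch was 15_14 and the highest maternally-stressed clutch 24_28 on both measures, so the group means lie closer together without them. In reads, the next clutches were control 15_2 (0.656) and maternally-stressed 8_10 (0.974), and the lack of overlap does not rest on this pair. The ratio of COX2 to COX1 was chosen after its values were seen and is given as a description with no test. Taken as a percent of COX1 reads, CYTB was 48.5% ± 4.54 and 46.8% ± 4.90 in maternally-stressed and control clutches, ND3 4.67% ± 0.426 and 4.27% ± 0.572, ATP6 15.7% ± 1.17 and 17.0% ± 2.28, and COX3 19.0% ± 3.70 and 20.0% ± 1.58, and each of these overlapped between groups.

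**Figure D4:**
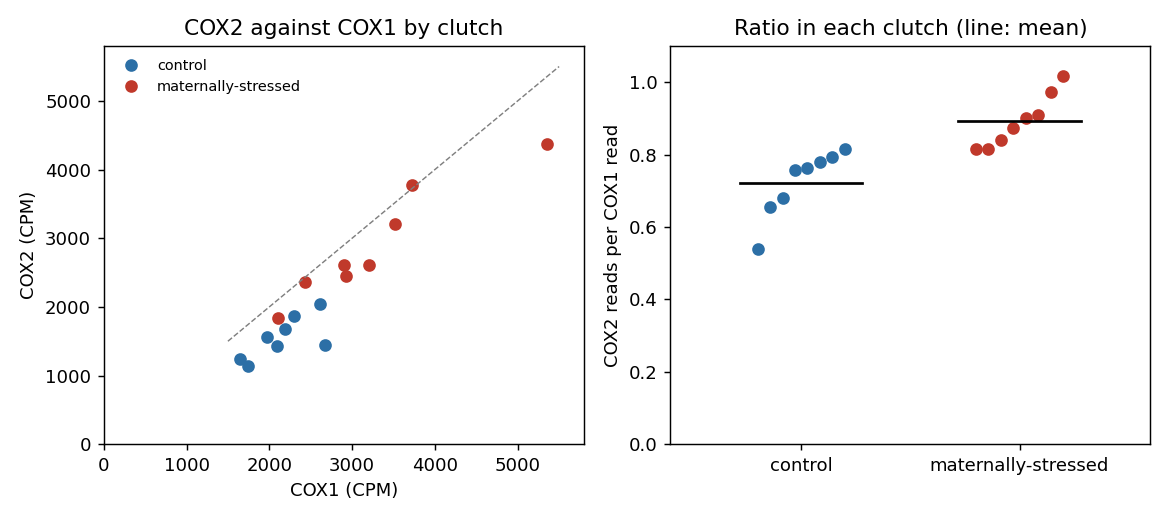
Left, COX2 against COX1 in CPM, 1 point per clutch, with a dashed line of equal levels. Right, COX2 reads per COX1 read in each clutch, with the group mean as a line. Maternally-stressed clutches lie between 0.815 and 1.02 and control clutches between 0.538 and 0.814.

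The levels of the named protein-coding models followed each other closely across clutches. Over the 16 clutches, the median Pearson correlation of each named model with the other 7, on log2(CPM + 0.5), lay between 0.86 (COX2) and 0.93 (COX1). These points share libraries and depth and include the difference between groups, so the values are a description. Models 28 (0.742) and 32 (0.818) followed the named models less closely, and over all 16 clutches model 33 (-0.334) and model 21 (0.0675) did not follow them. The values of models 21 and 33 include clutches 15_14 and 24_28, where both models had very few reads. They were not computed without these clutches, so whether either model follows the named ones in the other clutches was not tested. The named models were listed for a difference between these groups, so part of this contrast could follow from how they were chosen. Within the groups the named models varied 2.19-fold to 3.55-fold from the lowest to the highest maternally-stressed clutch and 1.56-fold to 2.18-fold among control clutches.

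The rRNA models varied more between clutches than the named mRNAs did, though less than models 21 and 33, whose spans rest on clutches 15_14 and 24_28. Model 2 (position 69 to 1014) ranged from 85.5 through a median of 481 to 1003 CPM in maternally-stressed clutches, an 11.7-fold span, and from 70.1 through 140 to 576 CPM in control clutches, an 8.22-fold span. Model 4 (position 1087 to 2776) had 244, 903 and 2146 CPM against 218, 369 and 846 CPM, spans of 8.80-fold and 3.89-fold. Maternally-stressed clutches 10_5 and 24_28 were high for both models, and 3_10 and 14_28 were low. The log2 fold changes were 1.11 (SE 0.48, adjusted p = 0.266 from limma) for model 2 and 1.01 (SE 0.37, adjusted p = 0.197) for model 4. With all clutches these changes were numerically larger than that of COX2, but their standard errors were more than 2 times as large and neither passed. Without clutches 15_14 and 24_28 the log2 fold changes were 0.83 for model 2, 0.80 for model 4 and 0.81 for COX2. Neither rRNA model passed there (adjusted p = 0.430 and 0.322 from limma).

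The rRNA models were high in the clutches with the highest short nuclear shares, but the 2 measures did not keep the same order in all clutches. Their summed share was highest in clutch 10_5 (0.315% of reads), then 24_28 (0.221%), and among control clutches in 15_2 (0.142%), and the short nuclear share was 0.0874%, 0.0670% and 0.0463% in the same clutches, the last again the highest of the control group. Among maternally-stressed clutches 14_28 and 3_10 had little of both, with 0.0453% and 0.0329% in rRNA models and 0.0276% and 0.0303% in short nuclear models. Control clutches 20_28 and 15_5 went the other way, with 0.0678% and 0.0419% in rRNA models but 0.0278% and 0.0336% in short nuclear models. With the short nuclear share as a covariate in limma, the log2 fold change was -0.27 for model 2 and 0.04 for model 4. The protein-coding models moved less far in that fit. The largest that remained were COX2 at 0.63 (adjusted p = 0.262), CYTB at 0.43 (adjusted p = 0.406) and ND3 at 0.43 (adjusted p = 0.436). COX1 was at 0.35, ATP6 at 0.33, COX3 at 0.26, ND1 at 0.26 and ND2 at 0.14. Model 28 was at 0.0012 and model 32 at -0.073, and the median of the 16 models in that fit was 0.12. In it 0 of the 16 models and 1 of 17440 genes were called on logCPM. At an unadjusted p under 0.05, 3 of the 16 were higher and 0 lower, against 1853 of 17440 genes in either direction. The short nuclear share itself was higher in the maternally-stressed group (0.0516% ± 0.0207 against 0.0316% ± 0.00645), so its part and that of maternal treatment cannot be told apart in this fit.

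Model 33 (position 13775 to 14296, 522 nt) was the 1 protein-coding model that was lower in maternally-stressed embryos on logCPM. It had 1, 104.5 and 144 reads (lowest, median and highest) in maternally-stressed clutches and 1, 171.5 and 307 reads in control clutches. The single reads came from clutches 24_28 and 15_14, and no other clutch had fewer than 64 reads. With all clutches the log2 fold change was -0.69 (SE 0.39, adjusted p = 0.383 from limma). Both of these clutches were then left out, a choice made after seeing the data. Reads were 64 to 144 in 7 maternally-stressed and 160 to 307 in 7 control clutches, without overlap. In CPM the groups overlapped slightly, with 14.3 in maternally-stressed clutch 10_5 and 13.9 in control clutch 5_14. The other 6 of 7 maternally-stressed clutches lay below every control. FPKM overlapped too, reaching 54.0 in maternally-stressed clutches and starting at 37.7 in control clutches. The means were then 8.88 ± 2.72 and 17.3 ± 4.74 CPM. The log2 fold change was -0.79 (SE 0.15, adjusted p = 0.0525 from limma), which passed FDR 0.1, as did 84 of 17440 genes in that fit. Both clutches were left out for their low reads of this model, which by itself narrows the SE. That adjusted p is therefore no test of model 33. Without 15_14 alone the log2 fold change was -1.04 (adjusted p = 0.0722), and without 24_28 alone it was -0.44 (adjusted p = 0.607). As a share of mitochondrial reads, model 33 was 0.0463% to 0.110% in those 7 maternally-stressed clutches and 0.206% to 0.328% in those 7 control clutches. On log2(FPKM + 1) the value without both clutches was -0.50 (adjusted p = 0.192), which did not pass.

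Clutches 15_14 and 24_28 were set apart because models 21 and 33 were low in them. A search of this pair for genes low in both therefore cannot show how rare such counts are. Of 12090 genes with a median of at least 5 CPM in the other 14 clutches, only model 33 was below 10% of it in both. In 15_14 there were 2 genes that low, and in 24_28 there were 4. The result depends on the cut of 5 CPM, because model 21 had a median just below it and was left out. As a share of mitochondrial reads, model 21 was 0.0577 times the median of the other 14 clutches in 15_14 and 0.0618 times in 24_28. A single read has an exact 95% Poisson interval of 0.0253 to 5.57 reads, counting error only. The share of mitochondrial reads in model 33 was 42.1 times lower in 15_14 and 78.6 times lower in 24_28 than in the lowest of the other 14 clutches. Model 33 overlaps model 32 by 4 nt. The library kit marks strand, but whether the counting used it is not stated in the sources used here.

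Model 21 (position 7939 to 8106, 168 nt), directly ahead of ATP6, was low in the same clutches. It had 3 reads in 15_14 (95% interval 0.619 to 8.77) and 6 reads in 24_28 (95% interval 2.20 to 13.1), against 27 to 111 reads in the other 14 clutches. Its share of mitochondrial reads was thus 12.6 and 11.8 times lower than in the lowest of those. In the groups as a whole it had 6, 60 and 111 reads in maternally-stressed and 3, 50 and 99 reads in control clutches, and the log2 fold change was 0.11 (SE 0.25, adjusted p = 0.861 from limma). Without both clutches it was 0.11 (SE 0.17), so no difference between groups was resolved with or without them.

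The same clutches also had the largest shares of COX3, which lies beyond ATP6. COX3 took 7.81% of mitochondrial reads in 15_14 and 7.22% in 24_28, against 4.43% to 6.56% in the others, or 1.302 and 1.348 times the median of the other clutches in their own group. ATP6, between model 21 and COX3, lay within the range of the other 14 clutches in both. At other models the clutches were not alike. COX1 lay above the range of the other 14 in 15_14 (36.0% of mitochondrial reads) and below it in 24_28 (26.3%). ND2 and ND3 lay outside that range in 15_14 only, and ND1, CYTB and model 17 in 24_28 only. Model 28 was 0.599 times its group median in 15_14 and 1.06 times in 24_28. The mothers and sires of these clutches, and whether the embryos differed in mitochondrial sequence, were not analysed here.

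**Figure D5:**
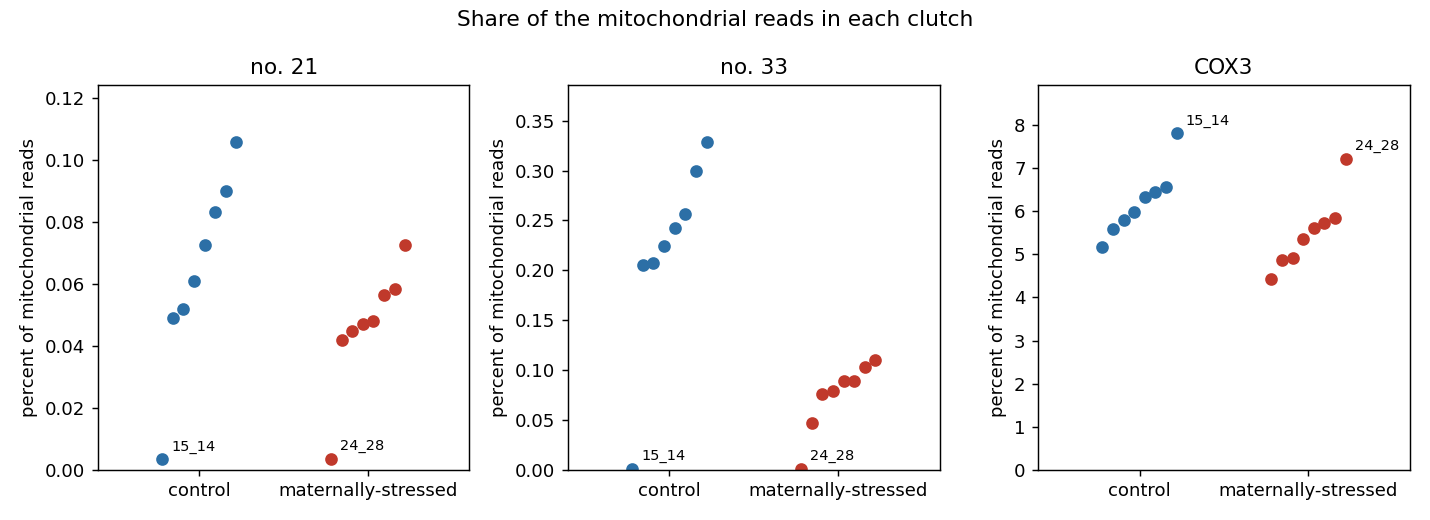
Percent of mitochondrial reads in models 21 and 33 and in COX3, 1 point per clutch, sorted within each group, with all axes from 0. Clutches 15_14 and 24_28 are labelled, and they are the lowest of their groups for both models and the highest for COX3 (7.81% and 7.22%).

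The other unnamed protein-coding models, 27, 28 and 32, did not pass the test. Model 32 (position 11940 to 13778, 1839 nt, the longest of the 37) had 205, 311 and 667 CPM in maternally-stressed and 188, 243 and 343 CPM in control clutches. Its log2 fold change was 0.28 (95% interval -0.11 to 0.66, adjusted p = 0.472 from limma). Model 28 (position 10343 to 11723) had 123, 214 and 398 CPM against 102, 188 and 246 CPM, with a log2 fold change of 0.28 (95% interval -0.14 to 0.71, adjusted p = 0.505). The groups overlapped for both, and both intervals include the value of COX1. Model 27 (position 10053 to 10349) had only 2 to 13 reads in maternally-stressed and 1 to 12 reads in control clutches, so its log2 fold change of 0.03 rests on very few reads, and it overlaps model 28 by 7 nt.

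As a share of mitochondrial reads, model 32 was lower in most maternally-stressed clutches. It took 2.29% to 3.53% there and 3.06% to 4.39% in control clutches, and 6 of 8 maternally-stressed clutches lay below every control. Model 28 took 1.773% to 2.105% against 1.65% to 3.24%, and ND2 1.16% to 1.32% against 1.02% to 1.85%. As a percent of COX1 reads the means in maternally-stressed and control clutches were 9.98% ± 1.46 and 12.2% ± 1.86 for model 32. They were 6.73% ± 0.754 and 8.42% ± 2.15 for model 28, and 4.34% ± 0.441 and 4.99% ± 0.650 for ND2. On this measure the groups overlapped for each of these models. The shares of mitochondrial reads in a clutch add up to the whole, so they are not independent of each other. None of these shares was tested.

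Of the 22 tRNA models, 16 were at 0 FPKM in every clutch. The other 6 (models 5, 13, 17, 18, 31 and 34) accounted for 36 values above 0 of 352, the lowest of which was 288 FPKM, and model 5 was above 0 in 1 clutch only. Model 34 (position 14297 to 14366) was above 0 in 9 clutches, model 13 (position 5222 to 5294) in 6, model 31 (position 11864 to 11936) in 3 and model 18 (position 7090 to 7162) in 2, both maternally-stressed. None of the 5 tested tRNA models passed on log2(FPKM + 1), and their standard errors were between 1.17 (model 17) and 2.17 (model 34) on the log2 scale.

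Model 17 (position 7016 to 7086), the tRNA model directly after COX1, was the only one on both scales. It had 1 to 11 reads in maternally-stressed and 3 to 14 reads in control clutches, with a log2 fold change of -0.08 on logCPM (adjusted p = 0.583 from limma) and 1.16 on log2(FPKM + 1) (adjusted p = 0.602). Its mean was 897 FPKM, and its FPKM did not follow its reads by clutch, with 955 FPKM at 1 read in 3_10, 410 FPKM at 8 reads in 17_10 and 0 FPKM at 3 reads in 15_2. Mean FPKM was 127 times CPM per kilobase for model 17, 8.34 times for model 21, 5.82 times for model 27, 1.504 times for ND3 and 0.604 times for COX1. FPKM levels of models 17, 21 and 27 were not compared with those of longer models.

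Genes of the nuclear genome that work with these products could be named only where the study's list names them, so their directions and their count of calls restate that choice and are not independent of these samples. Of 10 nuclear-encoded subunits of complexes I, III and IV, all were higher and 4 rose past FDR 0.1 on logCPM, with a median log2 fold change of 0.32, where 0.103% of all genes rose. The 4 were NDUFA4 (451 ± 22.4 against 376 ± 29.2 CPM, log2 fold change 0.26, adjusted p = 0.0614 from limma), UQCRQ (0.32, adjusted p = 0.0718), NDUFB8 (0.35, adjusted p = 0.0738) and NDUFA7 (0.36, adjusted p = 0.0779). UQCRQ is a subunit of complex III, and NDUFB8 and NDUFA7 are subunits of complex I. Of a list of mitochondrial transcription and RNA processing genes, 2 were named, HSD17B10, a subunit of mitochondrial RNase P (log2 fold change 0.22, adjusted p = 0.120), and FASTKD3, a mitochondrial RNA-binding protein (0.26, adjusted p = 0.138), and neither passed.

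Clutch names hold 2 numbers whose meaning the labels do not give, and the second is shared between groups for 5, 21 and 28. COX2 was higher in the maternally-stressed clutch in each such comparison, with 4367 against 1674 CPM for number 5, 2610 against 1867 CPM for number 21, and 2456, 2614 and 3782 CPM in 3 maternally-stressed clutches against 2041 CPM in 1 control clutch for number 28. CYTB was also higher in each, with 2523 against 963 CPM for number 5, 1399 against 1164 CPM for number 21, and 1595 to 1659 against 1055 CPM for number 28. These directions follow from the ranges given above and add nothing to them. Every maternally-stressed clutch but 3_10 exceeded all control clutches for both genes, and 3_10 shares its second number with no control clutch. With 1 control clutch for each number, these are values with no test. Number 14 occurred only in control and number 10 only in maternally-stressed clutches, so for those clutches what the number stands for and maternal treatment cannot be told apart. The first number was repeated only among control clutches, as 15 in 15_14, 15_2 and 15_5 and as 5 in 5_14 and 5_21. The first number was also used as a random replicate block in limma, a fit added after seeing the data. In it 4 of 16 models rose on logCPM (COX2, CYTB, ND3 and COX1) and 236 of 17440 genes were called. The consensus correlation within numbers was -0.102. A negative value narrows the errors in place of allowing for likeness within numbers, so the added calls carry no support.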

How the data were processed

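Members and gene lists were chosen with earlier results of these data known. RNA of 16 clutches, 8 per group as their labels give it, was sequenced. Trimmed reads were aligned by the authors with TopHat2 2.0.8 (build BROADS1), and 2 kinds of value were deposited. The logCPM values, made by the authors with edgeR, are log2 CPM with a prior, here a floor of 2.77 CPM, so changes of weakly expressed genes are understated. Whole reads were recovered from them, with a largest deviation of 4.1e-09. Cufflinks 2.1.1 was used by the authors for the FPKM values. FPKM bounds in those files were not used here.

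Groups were compared with limma 3.58.1 (R 4.3.3, lmFit, eBayes with trend) in two-sided tests, adjusted by Benjamini-Hochberg over 17440 genes on logCPM (FDR 0.1) and over 21028 models above 0 in at least 2 clutches on log2(FPKM + 1) (FDR 0.05). A fold change on the second scale includes the pseudocount of 1. Adjusted p-values are from limma throughout. The logCPM fit was run on simulated reads, drawn independently for each gene with the same dispersion. Variation shared by genes of a clutch was not simulated, so that run does not cover models that move together. All rRNA and protein-coding models are described, and of the tRNA models the 5 with the highest mean FPKM and those on logCPM. Nuclear genes are the up to 4 per list with the smallest p. Alternatives were other scalings, priors, pseudocounts, filters, clutch weights, voom, a replicate block, a covariate and each clutch left out. The strand of counting is not given in the sources used here. Figures were drawn with matplotlib 3.10.9.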

Additional observations from a re-analysis of the deposited data

Results flagged for a closer look

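In 40 sets of 8 clutches (32 of a model on CPM within a group and 8 of a share or ratio within a group), 4 had 1 clutch far from the rest, as judged by the gap to its neighbour over the whole range against the critical value of Dixon's test. Chance alone gives about 1 such set in 20 where values are normally distributed and sets are independent. These sets share libraries, so that rate does not give the number to expect here. Model 2 was at 575.8 CPM in control clutch 15_2, against a control median of 139.7 CPM, with a gap of 0.568 of the range. ND1 was at 350.2 CPM in maternally-stressed clutch 10_5, against a median of 187 CPM (0.537), and model 32 was at 667 CPM in the same clutch, against a median of 311 CPM (0.640). Model 17 was at 1.26 CPM in control clutch 20_28, which is 14 reads, against a median of 0.517 CPM (0.705). Clutches 10_5 and 15_2 also had the highest short nuclear share of their groups, at 0.0874% and 0.0463% of reads. The cause of these 4 values was not tested.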

How the results depend on the processing

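The 2 higher calls on logCPM became 1 with median-of-ratios scaling, library sizes without mitochondrial genes, eBayes without the trend, voom, the second name number as a replicate block, or without clutches 15_14 and 24_28, became 4 with the first name number as a replicate block (chosen after seeing the data), 3 with a mean CPM of at least 1, 10 with clutch weights and 0 with the short nuclear covariate, and ranged from 1 to 9 with single clutches left out. The 0 lower calls became 1 (model 33) without those 2 clutches, and ranged from 0 to 1 with single clutches left out. On FPKM the 1 higher call became 0 with median-of-ratios scaling, with the covariate and without those 2 clutches, 3 at FDR 0.1 and 6 with clutch weights, and ranged from 0 to 5 with single clutches left out, while lower calls stayed at 0. The difference in mitochondrial share ranged from 0.338 to 0.515 percentage points with single clutches left out and was 0.119 with summed FPKM. With the replicate block, COX2 kept its call (log2 fold change 0.87, adjusted p = 0.0585 from limma) and CYTB lost it (adjusted p = 0.113). The clutches share only a number, with a consensus correlation of 0.0866.

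Directions turned with the covariate for model 2 (-0.27 on logCPM, -0.24 on FPKM), model 27 (-0.075) and model 32 (-0.073 and -0.060), with clutch weights for model 21 (-0.019), and with single clutches left out for model 21 (-0.059 to 0.28 on logCPM, -0.36 to 0.64 on FPKM), model 27 (-0.0040 to 0.058) and model 33 on FPKM (-1.002 to 0.13). Of 839 values of single models under alternatives, 753 kept direction and side of the threshold, 40 newly passed, 33 no longer passed and 13 turned. CYTB on logCPM lost its call in 20 of 28 alternatives, COX2 on FPKM in 12 of 28 and COX2 on logCPM in 1 of 28. The cause was not tested.

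Calls over all genes on logCPM were 90, against 15 with median-of-ratios scaling, 21 without the trend, 47 and 236 with the second and first number as block, 2491 with clutch weights and 1 with the covariate. On FPKM they were 65, against 241 with a pseudocount of 0.1, 208 with a mean FPKM of at least 1, 153 with quantile normalization, 35 with the second number as block, 1023 at FDR 0.1, 2027 with clutch weights, 1 with median-of-ratios scaling and 0 with the covariate or without the 2 clutches. With single clutches left out they ranged from 7 to 1233 and from 0 to 1551. Read depth limits models 17, 21, 27 and 33, which had at most 307 reads in any clutch.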
